A study of Mus musculus with 24 samples.

Results

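The cells described here are proliferating CD8 T cells from mouse tumors, read by droplet single-cell RNA sequencing. They were chosen by their own counts of unique molecular identifiers (UMIs, which mark single captured RNA molecules). A barcode was taken if it held at least 1000 UMIs with under 10% from mitochondrial genes, at least 1 UMI of Cd3d, Cd3e or Cd3g, at least 1 of Cd8a or Cd8b1, none of Cd4, and at most 1 of the macrophage gene C1qb. It also had to hold at least 1 UMI of Mki67 and at least 1 of Top2a or Birc5. Of 144994 barcodes, 120912 passed the limits on UMIs and mitochondrial share, 12847 of these were CD8 T cells, and 1951 of those were proliferating. The 16 libraries held 60–213 proliferating cells each.

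Tumors of Panc02, a mouse pancreatic cancer line, were grown under the skin of male C57BL/6 mice implanted at 6 to 7 weeks of age. Mice received PancVAX, Anti-PD-1, Anti-CTLA-4, each pair of these, all of them, or Isotype control antibodies, which makes 8 treatments. PancVAX is a neoantigen peptide vaccine (on days 12 and 19, at 50 µg per peptide by the methods of the study) that was given with a STING agonist, while other mice received buffer, so that peptides and adjuvant cannot be told apart. Anti-CTLA-4 (100 µg) was given on days 15 and 22 by the labels and methods (a legend of the study has day 19 for the second) and Anti-PD-1 (100 µg) repeatedly from day 12, and tumors were taken on day 38. Tumors of several mice were pooled by treatment, and each treatment gave 1 library of whole dissociated tumor and 1 of immune cells enriched by Percoll density, which are also the sequencing batches. Both libraries of a treatment were summed and are called its pool, so that the comparisons set 4 pools against 4 and measure the spread between pools, not between mice. The T cell receptors of the 8 Percoll libraries were sequenced too. Libraries held 77132398–176233225 UMIs.

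A T cell that meets its antigen leaves rest, copies its DNA in S phase and divides in mitosis, and the daughters of 1 cell share its T cell receptor, so that division builds a clone. Tumors also hold CD8 T cells that have lost part of their function under lasting stimulation, and dividing cells can come from these or from effector cells. Mki67 encodes the proliferation antigen Ki-67, Top2a the topoisomerase that untangles copied DNA, Birc5 the survivin subunit of the chromosomal passenger complex, and Ccnb2 a cyclin of the G2 phase.

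The choice used Mki67, Top2a and Birc5, whose levels are therefore a description. The median proliferating cell held 4 UMIs of Mki67, 5 of Top2a and 4 of Birc5. Just inside the limits, 470 cells held a single Mki67 UMI and 180 of these also held a single UMI of Top2a and Birc5 together. Just outside, 641 CD8 T cells held Mki67 without Top2a or Birc5, and 1984 held Top2a or Birc5 without Mki67. The 8271 CD8 T cells with no UMI of any of these genes are called the other CD8 T cells. Ccnb2, which the choice did not use, reached 161 CPM (UMIs of a gene scaled to a common library total) ± 25.4 (SD over 16 libraries) in proliferating cells and 4.56 ± 1.94 in the other CD8 T cells.

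The stretches of DNA at the starts of these genes are shown because many genes of G2 and mitosis share short motifs there that cell cycle factors are known to read. From the RefSeq promoter table (build GRCm38.p6), the last 120 bases before the start that the table uses are printed 5′ to 3′ on the strand of the gene. That start lies inside the annotated gene for Mki67 and Top2a, so that 71 and 10 of their printed bases fall within the gene. Capitals mark the CHR core TTTGAA or its reverse complement TTCAAA, and the CCAAT box or its reverse complement ATTGG. Matches of the motifs can share a base. Mki67 lies at chr7:135716380-135716499 (minus strand), Top2a at chr11:99024190-99024309 (minus), Birc5 at chr11:117849117-117849236 (plus) and Ccnb2 at chr9:70421555-70421674 (minus).
Mki67: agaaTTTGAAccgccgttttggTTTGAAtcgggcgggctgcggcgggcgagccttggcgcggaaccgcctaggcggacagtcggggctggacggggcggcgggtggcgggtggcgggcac
Top2a: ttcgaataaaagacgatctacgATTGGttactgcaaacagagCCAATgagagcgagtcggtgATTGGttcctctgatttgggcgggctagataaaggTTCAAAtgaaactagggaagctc
Birc5: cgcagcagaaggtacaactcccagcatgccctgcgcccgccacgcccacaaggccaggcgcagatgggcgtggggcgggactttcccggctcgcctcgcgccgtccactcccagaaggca
Ccnb2: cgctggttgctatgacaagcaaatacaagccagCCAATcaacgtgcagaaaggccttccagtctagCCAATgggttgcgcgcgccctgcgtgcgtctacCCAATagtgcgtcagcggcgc

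In these windows Mki67 held 2 CHR cores, Top2a 1 CHR core and 3 CCAAT boxes, Ccnb2 3 CCAAT boxes, and Birc5 neither motif. The 250 bases before the start were read for 47 of a list of 54 genes of G2 and mitosis. Of these 47 genes, 40.4% held a CHR core, 78.7% a CCAAT box and 36.2% both. Of all 27025 genes with a promoter of that length, 18.3% held a CHR core, 37.5% a CCAAT box and 6.45% both. A gene counted if any of its promoters held the motif, and for both they had to lie in the same promoter. For S phase genes (32 of 43 matched), the shares were 18.8%, 71.9% and 12.5%, and for cytotoxic effector genes (24 of 29 matched) they were 20.8%, 45.8% and 4.17%.

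Transcripts of other cells were counted in each barcode. The 10 genes of tumor epithelium and fibroblasts (Krt8, Krt18, Krt19, Epcam, Krt7, Col1a1, Col1a2, Col3a1, Dcn and Sparc) were summed in each cell, and the sums spread widely. At most 1 such UMI was held by 1401 proliferating cells (71.8%), 2 to 9 by 117 and 10 or more by 433 (22.2%). The last had a median of 32551 UMIs in all and 65 of these genes, but 21 UMIs of T cell receptor, CD3 and CD8 genes. Cells with at most 1 had a median of 9567 UMIs and 52 of the T cell genes. Whether barcodes with 10 or more hold more than 1 cell was not tested, and their UMIs of Mki67, Top2a and Birc5 cannot be told apart by source. The share with 10 or more was 11.9% of the proliferating cells of the pool given PancVAX alone, 20%–28.5% in the other PancVAX pools and 13.6%–26.7% in the pools without it. Of the 8271 other CD8 T cells, 455 held 10 or more, a smaller share. The main counts and differences are given for all proliferating cells and mostly also for the 1401 with at most 1 of these UMIs. Most named genes, gene lists and marker sums are given for those 1401 alone. That limit was set after these sums were seen. The macrophage gene Lyz2 was present in 15.2% of the proliferating cells and in 13.8% of the other CD8 T cells. Of the barcode sequences, 12150 occurred in more than 1 library, and 3 did so among proliferating cells. The NK cell gene Klra8 was at 0 in the proliferating cells of every pool, but the list of 4 NK cell genes was not. It summed to 64.8–79.0 CPM with PancVAX and 39.7–81.3 without in all proliferating cells. In the other CD8 T cells it summed to 20.1–33.4 and 18.2–30.6. With at most 1 tumor or fibroblast UMI the order of the classes turned. The list then summed to 2.47–5.92 and 0–5.01 in proliferating cells and to 9.85–14.9 and 8.67–14.1 in the other CD8 T cells. Cd4 was at 0 by the choice.

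**Figure D1:**
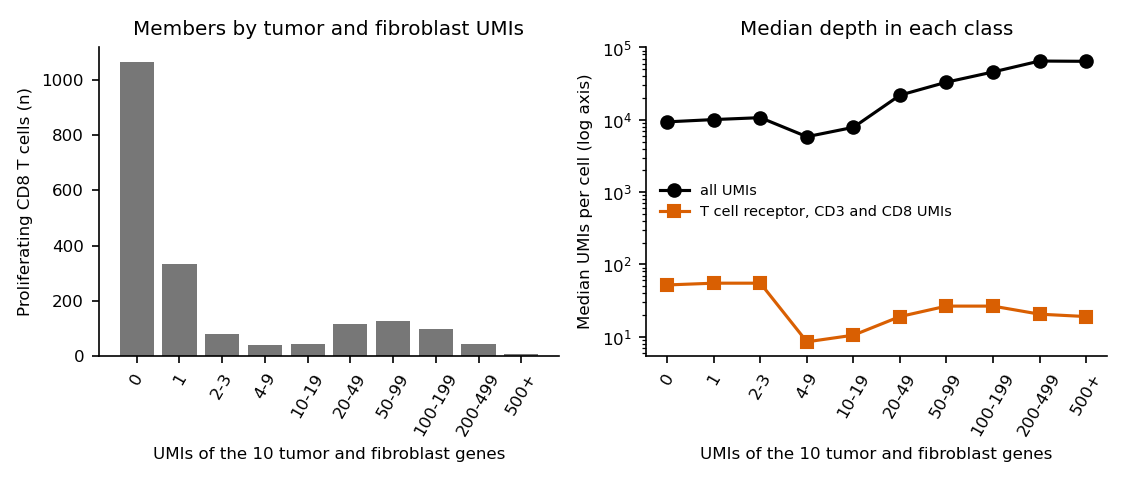
Proliferating CD8 T cells by the sum of 10 tumor and fibroblast genes (x axes, UMIs per cell); the left bars count cells, and the right lines give, on a log axis, the median of all UMIs (black) and of T cell receptor, CD3 and CD8 UMIs (orange) in each class. Most cells sit at 0 (1067) or 1 (334). The classes widen to the right, so that the heights of their bars cannot be compared directly. Total depth is higher at 20 and above.

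Proliferating cells differed from the other CD8 T cells in more than the genes that chose them. These differences describe the cells chosen, and no test applies to them. Log2 ratios are medians over the 16 libraries, with the value in cells with at most 1 tumor or fibroblast UMI in brackets. Over the 3005 genes at 50 CPM or more, the median was 0.16 [0.12]. All 51 genes of G2 and mitosis outside the choice were higher, at a median of 3.70 [3.84], and all 43 of S phase, at 1.96 [2.21]. The highest not used in the choice was Ccna2, the cyclin of S and G2, at 5.74 (207 CPM ± 33.2 against 3.26 ± 1.90). Next were Cenpf, a kinetochore gene, at 5.43, and Pclaf, a PCNA partner in DNA repair, at 5.12. Ccnb2 was at 4.98, and the mitotic kinases Aurkb and Plk1 were at 4.92 and 4.88.

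Genes that supply nucleotides were higher too, in 14 of 14, at a median of 1.43 [1.56]. Rrm2, a subunit of ribonucleotide reductase, stood at 4.59, the thymidine kinase Tk1 at 3.76, and the thymidylate synthase Tyms at 2.97. Glycolysis genes were higher in 12 of 12 at 0.72 [0.85], with the lactate dehydrogenase Ldha at 1.04 (1501 CPM ± 146 against 735 ± 90.4). Of the granzymes encoded beside Gzmb, granzymes C to G, 5 of 5 medians were above 0, and Gzmc stood at 2.41 [2.98] and was higher in 16 of 16 libraries. Gzmb itself, the main granzyme of killing, stood at -0.17 [0.17].

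Among the lowest ratios were those of some T cell genes. The chemokine Ccl5, of the cytotoxic list, was at -2.85 [-2.67] (1233 CPM ± 849 against 8055 ± 4590), and was lower in 16 of 16 libraries. S1pr1, the receptor that lets lymphocytes leave tissue, stood at -2.0 [-1.70], and Ly6c2, a surface protein of effector and memory cells, at -1.76 [-1.33]. The quiescence factor Klf2 was at -0.97 [-1.21] and the antiproliferative Btg1 at -1.26 [-1.48]. Of the 11 genes of cell cycle inhibition and quiescence that hold both, 4 were higher, the inhibitors Cdkn2a (1.47), Cdkn2c (0.82), Cdkn2d (0.77) and Cdkn1a (0.67), and the median was -0.47 [-0.64]. The stem-like factor Tcf7 was at -1.40 [-1.0]. Of 14 genes of naive and stem-like cells 1 was higher, with a median of -1.13 [-1.0]. All 13 interferon response genes were lower, at -0.90 [-1.11]. Neutrophil and macrophage genes were also lower, at -2.93 and -1.26 for the medians of the lists.

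Exhaustion genes had higher ratios once barcodes with tumor transcripts were left out. Of 22, 4 were higher, with a median of -0.43 over all cells and -0.10 in cells with at most 1 tumor or fibroblast UMI. The inhibitory receptor Pdcd1 moved from -0.30 to -0.05, the exhaustion factor Tox from -0.69 to -0.14, and the activation receptor Tnfrsf9 from -0.14 to 0.49. The transcription factor Irf8 moved from 0.24 to 0.73 and was then higher in 16 of 16 libraries. The cytotoxic list moved from a median of -0.58 to -0.22.

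The share of CD8 T cells that met the proliferation limits was lower in the pools given PancVAX. It was 14.2% with PancVAX alone, 12.7% with PancVAX + Anti-PD-1, 13.2% with PancVAX + Anti-CTLA-4 and 13.0% with all agents. It was 20% with Isotype control, 15.7% with Anti-PD-1, 18.5% with Anti-CTLA-4 and 19.6% with both antibodies. The groups did not overlap. The means were 13.3% ± 0.662 (SD, n = 4 pools) and 18.5% ± 1.94 (n = 4), a difference of -5.16 points (two-sided exact permutation test, p = 0.0286, the smallest that 70 assignments allow). The p adjusted over the 3 agents (Benjamini-Hochberg) was 0.0857 by that exact test. Whole-tumor libraries alone gave -5.11 points, Percoll libraries alone -4.97, and cells with at most 1 tumor or fibroblast UMI -4.95. Among single libraries the share ran from 11.6% (exact binomial 95% interval 9.83%–13.6%) in the whole-tumor library of PancVAX + Anti-PD-1 to 21.4% (18.1%–25.1%) in that of Isotype control. These intervals cover counting error only.

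Depth per cell differed between the groups in the same direction. The median other CD8 T cell held 3274–3463 UMIs in PancVAX pools and 4101–5058 in the pools without PancVAX, and a deeper cell is more likely to show a UMI of each gene. When every cell was thinned to 1000 UMIs, 312 cells on average over 20 draws still met the limits. Their share was 2.85%–3.70% with PancVAX and 3.05%–3.92% without, and the groups overlapped. The difference fell to -0.27 points (exact permutation test, p = 0.429). Thinned to 2500 UMIs, which left out 2260 shallower cells, 69 of them proliferating, it was -0.88 points (exact permutation test, p = 0.171). Within the upper limits of the study (3000 genes and 10000 UMIs), which kept 849 of the 1951 cells, it was -0.70 points (exact permutation test, p = 0.457). Depth and PancVAX moved together, and their parts in the share cannot be told apart here. The shares with and without Anti-PD-1 differed by -1.21 points (exact permutation test, p = 0.629) and those with and without Anti-CTLA-4 by 0.44 points (exact permutation test, p = 0.886).

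**Figure D2:**
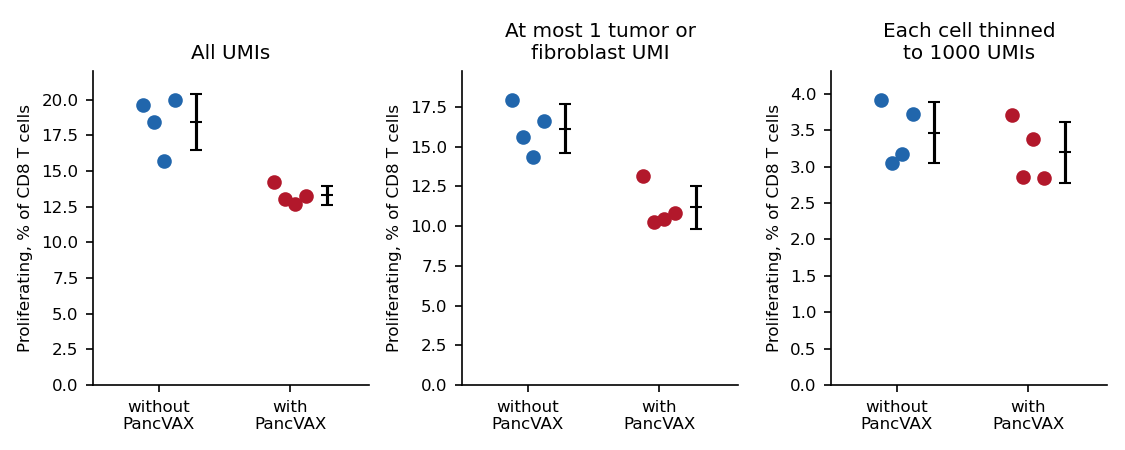
Proliferating cells as a percent of CD8 T cells (y axes) in each pool without PancVAX (blue) and with PancVAX (red), from all UMIs, in cells with at most 1 tumor or fibroblast UMI, and after every cell was thinned to 1000 UMIs; black bars are mean and SD (n = 4 pools). The groups separate at 12.7%–14.2% against 15.7%–20% in the left plot and overlap in the right plot.

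Where in the cycle the proliferating cells stood was read from the UMIs of 43 S phase genes and of 51 G2 and mitosis genes (the list of 54 without Mki67, Top2a and Birc5). The median cell held 45 UMIs of the former and 90 of the latter, against 4 and 5 in the other CD8 T cells, and these genes took 1.17% of all UMIs against 0.242%. No cell lacked them. Mki67, Top2a and Birc5, by which the cells were chosen, belong to the G2 and mitosis list. The balance between the lists therefore describes the cells chosen, not all dividing CD8 T cells. The share of S phase in the UMIs of both lists spread widely between single cells, from 11.2% at the 10th to 62.2% at the 90th percentile. Between pools it spread little. It was 29.8% with PancVAX alone, 33.0% with all agents, 31.2% with PancVAX + Anti-PD-1 and 34.4% with PancVAX + Anti-CTLA-4, and 30.1%–31.3% in the pools without PancVAX. The groups overlapped, and their means of 32.1% ± 2.04 and 30.8% ± 0.556 (SD, n = 4 each) differed by 1.26 points (two-sided exact permutation, p = 0.343). For cells with at most 1 tumor or fibroblast UMI the difference was 1.34 points (exact permutation test, p = 0.229).

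The genes of the proliferating cells were compared between the pools with and without PancVAX on UMIs summed by pool, with the antibodies as covariates. A gene was called at an adjusted p below 0.05 and an absolute log2 fold change above 0.5 (edgeR quasi-likelihood test, Benjamini-Hochberg). In all proliferating cells 14 of 11290 genes rose (0.124%) and 0 fell (0%), with 1012 genes at an unadjusted p below 0.05. DESeq2 called 43 up and 6 down. Within the upper limits of the study 356 of 6737 genes rose (5.28%) and 162 fell (2.40%). The pools did not overlap for 6.25% of the genes. In the 1401 cells with at most 1 tumor or fibroblast UMI, 252 of 9121 genes rose (2.76%) and 58 fell (0.636%), with 1771 at an unadjusted p below 0.05, and the pools did not overlap for 12.2%. Of the 14 genes, 11 were also called there. Removing a pool moved the first count to 1 gene without Anti-CTLA-4, 3 without Anti-PD-1, 4 without PancVAX + Anti-PD-1, 5 without PancVAX + Anti-CTLA-4 and 22 without PancVAX. It moved the second (310 in both directions) to 153 without Anti-PD-1, 178 without PancVAX + Anti-PD-1, 183 without the pool of all agents and 184 without Anti-PD-1 + Anti-CTLA-4. Depth differed here too. The median of the 1401 cells was 7332–9300.5 UMIs in PancVAX pools and 9587–12913 in the pools without PancVAX. The cells were chosen by all their UMIs, and the part of depth in that choice was not tested for the gene results.

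Ccl5, which draws in T cells and myeloid cells, had the smallest p in all proliferating cells. It stood at 1441 CPM with PancVAX alone, 2539 with Anti-PD-1 added, 1586 with Anti-CTLA-4 added and 1953 with both. Without PancVAX it stood at 399 with Isotype control, 518 with Anti-PD-1, 479 with Anti-CTLA-4 and 668 with both. The groups did not overlap, and the log2 fold change was 1.86 ± 0.12 (SE; edgeR quasi-likelihood test, Benjamini-Hochberg adjusted p = 0.00171). S1pr1, the egress receptor, was at 24.8–46.7 CPM with PancVAX and 2.3–7.03 without, a log2 fold change of 2.71. Both of these genes were also among the lowest in proliferating against other CD8 T cells.

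The other genes in all proliferating cells were Mxd1, a MYC antagonist (log2 fold change 0.99), the GRAM domain gene Gramd3 (0.98), the integrin Itgax (2.60), the Notch feedback gene Nrarp (1.87) and the schlafen Slfn1 (1.54). Ly6c2 rose by 1.56, from 88.4–220 CPM without PancVAX to 356–492 with it. The chemokine receptor Ccr2 (2.14), the integrin Itgb7 (1.44) and the protease inhibitor Slpi (1.99), named after their values were seen, rose as well. Krtdap, a keratinocyte gene, was called at 7.92, but its UMIs came from 3 pools, at 112 CPM in PancVAX + Anti-PD-1, 9.5 in the pool of all agents and 0.306 in Isotype control. Of its 545 UMIs, 0 lay in cells with at most 1 tumor or fibroblast UMI. Nccrp1, also named after its value was seen, rose by 3.74. Krtdap, Slpi and Stfa3, a stefin, were the genes of the 14 not called in those cells.

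In all proliferating cells 2 of 28 cytotoxic effector genes and 1 of 14 naive and stem-like genes were called. Of 22 exhaustion genes and of 21 cytokine and activation genes 0 were called there. The rest of the gene results are for the 1401 cells with at most 1 tumor or fibroblast UMI, in CPM over 4 pools with and 4 without PancVAX. The median log2 fold change of all genes tested was 0.00. The interferon response list, genes switched on by type I and II interferons, had 10 of 13 genes up and 0 down, at a median of 1.33. Ifit3, an antiviral effector, stood at 12.7–26.8 CPM with and 0.69–2.99 without PancVAX (3.17 ± 0.34, SE). Irf7, the factor that amplifies the response, was at 35.1–67.0 and 9.84–20.6 (1.79 ± 0.24). Isg15, the ubiquitin-like modifier, was at 92.6–164 and 40.9–58.3 (1.33 ± 0.17). Ifi27l2a (1.07), the surface protein Ly6a (0.77), the tetherin Bst2 (0.63), Usp18, Oasl2 and Ifit1 also rose. Over all proliferating cells, the change of Bst2 turned sign in whole-tumor libraries alone and without Anti-PD-1. Rsad2, the antiviral viperin, was at 7.17–14.5 CPM in all PancVAX pools, at 0.747 with Anti-PD-1 + Anti-CTLA-4 and at 0 in the remaining pools. In none of these genes did the pools quoted overlap. In all proliferating cells, 0 genes of this list were called.

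Of the 11 genes of cell cycle inhibition and quiescence 5 rose and 0 fell, at a median of 0.46, and in all proliferating cells 0 were called. Klf2 was at 291–391 CPM with PancVAX and 81.7–189 without (1.44 ± 0.12, SE). Cdkn1a, the inhibitor p21, was at 132–184 and 66.3–89.2 (1.04 ± 0.12). Txnip, a brake on glucose uptake, rose by 0.67, and Btg1 by 0.52, which was not called without Anti-PD-1 + Anti-CTLA-4. The quiescence factor Foxo1 (0.55) was called in 2 of the 8 fits that left out a pool, and its change was -0.0025 when each cell was thinned to 1000 UMIs.

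Of 43 S phase genes 1 rose and 0 fell, at a median of 0.13, where 2.76% of all genes rose and 0.636% fell. Of the 51 genes of G2 and mitosis outside the choice 0 rose and 0 fell. The median of the list of 54, which holds Mki67, Top2a and Birc5, was 0.08. The S phase gene was the chromatin assembly factor Chaf1b (0.52), called in 3 of 8 fits that left out a pool. Ccnb2 stood at 159–224 CPM with PancVAX and 161–225 without (0.12, adjusted p = 0.511 by edgeR's quasi-likelihood test with Benjamini-Hochberg). Of 14 nucleotide synthesis genes, Cad, the enzyme that starts pyrimidine synthesis, fell by 0.50 and was called in 2 of 8 such fits. Of 12 glycolysis genes 0 were called, at a median of -0.17. Cdk6, the kinase of the G1 phase, stood at 123–139 CPM with PancVAX and 172–219 without, and fell by 0.55 on the log2 scale.

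Of 28 cytotoxic effector genes 7 rose and 0 fell, at a median of 0.02. They were Ccl5 (1.95), Ly6c2 (1.58), the integrin Itgb1 (0.86), the granzyme Gzmk (0.95), the death ligand Fasl (0.70), the galectin Lgals3 (1.69) and the receptor Klrg1 (1.34). Lgals3 ranged from 218 to 422 CPM with PancVAX and from 58.5 to 187 without. Gzmb was not among them, at 910–1481 CPM with and 1256–1577 without PancVAX (-0.25, adjusted p = 0.156 by edgeR's quasi-likelihood test with Benjamini-Hochberg). Of granzymes C to G 0 were called, at a list median of -0.093. When each cell was thinned to 1000 UMIs, Gzmf (-1.97) and Gzmc (-1.09) fell and the list median was -0.65. Gzmc was at 36.9 CPM in the pool of all agents and at 964–1171 in the other PancVAX pools, beside 775–1178 without PancVAX.

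Of 14 naive and stem-like genes 4 rose and 0 fell, at a median of 0.39. S1pr1 rose by 2.94 and Tcf7 by 1.09 (22.2–39.9 CPM with and 13.0–17.6 without PancVAX). Slamf6 (1.81) and the lymph node homing receptor Ccr7 (0.63) were each called in 2 of 8 fits that left out a pool. Ccr7 is also in the dendritic cell list, summed at 91.2–184 CPM with and 65.1–99.3 without PancVAX, and its change was -0.086 within the upper limits of the study. After thinning to 1000 UMIs, S1pr1 and Cd28 (0.94) rose and Xcl1 (-1.0) fell among the 8 genes of the list still tested, and Ccr7 was not called. Of 22 exhaustion genes the early activation factor Nr4a1 rose (0.82, 218–275 CPM against 96.8–164) and the receptor Cd244a fell by 0.63, called in 2 of 8 fits that left out a pool, and the median of the list was -0.12. Of the 17 exhaustion genes still tested after thinning, Nr4a1 rose and Tnfrsf9 fell. Of 20 cytokine and activation genes the costimulator Icos (0.71, called in 4 of 8) and the receptor Il18r1 (0.62, called in 6 of 8) rose, at a median of 0.10. After thinning 0 of the 14 still tested were called, with Icos at 0.83 and Il18r1 at 0.67.

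Among the genes with the smallest p outside the lists were, upward, Nrarp (2.17), Gramd3 (1.17) and the schlafen Slfn2 (1.03). Downward, besides Cdk6, they included the gamma chain constant gene Tcrg-C2 (-1.27), the splicing factor Hnrnpa0 (-0.66) and the neddylation enzyme Ube2m (-0.61). The protease inhibitor Ctla2a (-0.51) was called in 4 of 8 fits that left out a pool. Mxd1 rose by 1.25 and Itgax by 2.87. The kinase Pim1, a target of cytokine signals, stood at 223–276 CPM with PancVAX and 122–151 without (0.81). Tcrg-C4, another gamma chain gene, fell by 1.34 and was called in 2 of 8 such fits.

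Markers of other cells moved with these results in part. Summed over their lists, macrophage genes stood at 72.7–101 CPM with PancVAX and 43.1–87.7 without, with 8 of 8 genes above 0. Dendritic cell genes stood at 91.2–184 and 65.1–99.3 (Cd209a at 0 without PancVAX), neutrophil genes at 4.54–124 and 4.06–81.9, and B cell genes at 27.9–59.2 and 15.5–53.7. Genes of CD4 T cells stood at 157–197 and 178–215, and genes of gamma-delta T cells stood at 5.92–21.6 and 14.2–20.02, endothelial genes at 7.10–12.3 and 9.13–12.2, and NK cell genes at 2.47–5.92 and 0–5.01. Tumor genes, limited by the choice of cells, stood at 9.83–17.9 and 9.13–17.6, fibroblast genes at 5.46–8.39 and 3.55–9.51, and red cell genes at 0–1.09 and 0–1.43. The part of other cells in the results was not tested. When each cell was thinned to 1000 UMIs, 102 of the 3148 genes still tested rose (3.24%) and 33 fell (1.05%). Among the named genes Cd244a, Hnrnpa0, Icos, Il18r1, Ccr7 and Foxo1 were then not called, and Tcf7, Slamf6, Chaf1b, Cad, Ifit3, Rsad2, Itgax, Slfn1 and Tcrg-C4 no longer passed the filter on low counts. Of the 252 that rose with all UMIs 68 were among those 102 (27.0% and 66.7%), and of the 58 that fell 9 were among those 33 (15.5% and 27.3%).

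Whether the change with PancVAX differed between proliferating and other CD8 T cells was tested as the interaction of class and vaccine (edgeR quasi-likelihood test, Benjamini-Hochberg). In the other CD8 T cells with at most 1 tumor or fibroblast UMI, 704 of 10224 genes rose (6.89%) and 428 fell (4.19%). Both classes shared 193 genes that rose, 76.6% of the 252 and 27.4% of the 704, and 26 that fell, 44.8% of the 58 and 6.07% of the 428. The effect was more positive in proliferating cells for 50 of 9749 genes (0.513%) and more negative for 38 (0.39%), with 1212 at an unadjusted p below 0.05. In all cells it was more positive for 0 of 11470 (0%) and more negative for 1 (0.00872%), the collagen Col1a2, with 942 at an unadjusted p below 0.05. Without PancVAX + Anti-CTLA-4, 29 genes differed in place of 88. The count was 43 without Anti-PD-1 + Anti-CTLA-4, 52 without Anti-CTLA-4 and 56 without Isotype control. Markers of other cells also moved with PancVAX in the other CD8 T cells with at most 1 tumor or fibroblast UMI. Macrophage genes summed to 196.4–359 CPM with and 152–196.2 without PancVAX. Genes of CD4 T cells, a list that holds Ikzf2, summed to 79.01–99.5 and 157–217. Gamma-delta T cell genes were also lower with PancVAX, without overlap, and the sums of the remaining marker lists overlapped. The part of other cells in the differences between classes was not tested.

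Gzmb differed with the smallest p. In the joint fit it stood at 896–1459 CPM in proliferating cells with PancVAX and 1241–1555 without, and at 1248–1926 and 611–1018 in the other CD8 T cells. Its log2 change was -0.25 in proliferating and 0.98 in the other cells, and the joint fit put the difference at -1.26 ± 0.11 (SE; edgeR quasi-likelihood test, Benjamini-Hochberg adjusted p = 1.16e-05). In these comparisons, changes within a class come from a fit of that class alone and differences from the joint fit, so that they need not subtract exactly. The cytokine Ifng followed the same pattern (-0.23 and 0.46, difference -0.74), and it overlapped between pools in both classes. Itgb1 rose in both, by 0.86 and 1.49, and Ly6a by 0.77 and 1.52, and the joint fit put the differences at -0.66 and -0.78. Ifitm1, an interferon-induced membrane protein, differed by -0.68. Of 28 cytotoxic genes 0 were more positive and 5 more negative, the fifth being Ifitm2, at a list median of -0.24 beside -0.03 for all genes. Gzmb, Ifng, Itgb1, Ly6a and Ifitm1 were called in all 8 fits that left out a pool. Of 13 interferon response genes Rsad2 and Isg15 were more positive and Ly6a more negative, at a list median of 0.20. After thinning each cell to 1000 UMIs, 0 of the 10 interferon response genes still tested were called.

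Exhaustion genes showed the opposite sign. Tox stood at 82.9–142 CPM in proliferating cells with PancVAX and 140–163 without, and at 83.3–116 and 205–227 in the other CD8 T cells. Its log2 changes were -0.35 and -1.21, and the difference in the joint fit was 0.82 ± 0.10 (SE). The inhibitory receptor Lag3 changed by -0.12 and -0.94, with a difference of 0.80 in the joint fit. The other CD8 T cells had 11 of 22 exhaustion genes down and 2 up with PancVAX. In the interaction 4 of 22 were more positive in proliferating cells and 0 more negative, at a median of 0.37. Besides Tox and Lag3 these were Cd244a (0.84) and Cd160 (0.52), called in 3 and 2 of the 8 fits that left out a pool. Irf8 (-0.31 and -1.13, difference 0.79) and Ikzf2, the Helios factor (-0.30 and -1.25, difference 0.90), were called in all 8 of them. Within the upper limits of the study the difference was -0.10 for both Irf8 and Ikzf2, -0.20 for Cd160 and 0.17 for Ifitm1, so that their sign turned.

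The granzymes C to G had 3 of 5 genes more positive in proliferating cells, at a list median of 1.70: Gzmd (2.41), Gzme (1.70) and Gzmg (4.83). In the other CD8 T cells 4 of these 5 fell with PancVAX. In proliferating cells the pool of all agents held 13.4 CPM of Gzmd, 22.3 of Gzme and 0 of Gzmg, and the other PancVAX pools 317–712, 349–526 and 70.2–451. Gzme was called in 6 and Gzmg in 7 of the 8 fits that left out a pool, and the difference for Gzmd was -0.64 within the upper limits of the study. Some genes of mitosis moved in the other CD8 T cells. Kif23 differed by -1.36, Tubb4b by -0.91, Cks2 by -0.65 and Cenpa by 0.54, and among inhibitors Cdkn2d differed by -0.82. The other CD8 T cells were chosen for having no UMI of Mki67, Top2a or Birc5, and their depth differed with PancVAX. The part of that choice in the values of mitosis genes was not tested. Of 43 S phase genes 0 differed. Tagln2, an actin-binding protein, differed by -0.59, Acot7, a thioesterase, by 0.77 and Pim1 by -0.51. After thinning each cell to 1000 UMIs 18 of 4968 genes differed, among them Gzmb, Ifitm1, Ifitm2, Irf8, Tagln2, Acot7, Tubb4b and Gzmg. Not called after thinning were Ifng, Itgb1, Ly6a, Tox, Lag3, Cd244a, Cd160, Ikzf2, Gzmd, Gzme, Kif23, Cks2, Cenpa, Cdkn2d, Pim1 and Isg15. The list medians were then 0.37 for exhaustion genes (0.37 before), -0.22 for cytotoxic genes (-0.24 before) and 0.80 for granzymes C to G. Isg15 differed by 0.61 with at most 1 tumor or fibroblast UMI, where it was called in 2 of the 8 fits that left out a pool, and by -0.13 in all cells, where it was not called.

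**Figure D3:**
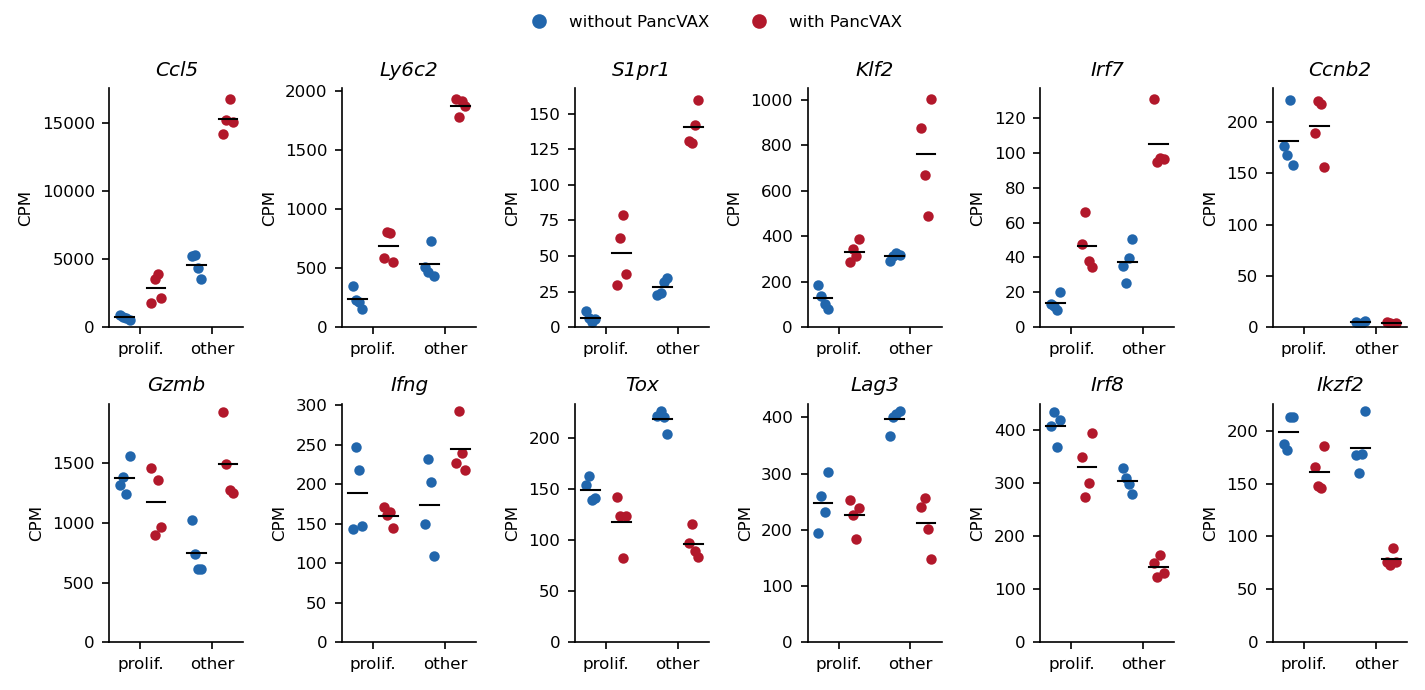
CPM (y axes, from 0) of 12 genes in the proliferating (left pair) and other (right pair) CD8 T cells with at most 1 tumor or fibroblast UMI; each point is a pool without PancVAX (blue) or with PancVAX (red), and bars are means of 4 pools. Ccl5, Ly6c2, S1pr1, Klf2 and Irf7 are higher with PancVAX in both classes, Ccnb2 is higher in proliferating cells, and the shifts of Gzmb, Tox, Lag3, Irf8 and Ikzf2 are larger in the other cells.

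Anti-PD-1 moved 0 of 11290 genes up (0%) and 0 down (0%) in all proliferating cells by edgeR's quasi-likelihood test, with 306 at an unadjusted p below 0.05 and 2 calls by DESeq2. Within the upper limits of the study 19 of 6737 rose and 1 fell, and without a filter on low counts 13 of 18937 rose and 1 fell. In cells with at most 1 tumor or fibroblast UMI, 1 of 9121 rose (0.011%) and 1 fell (0.011%). Both were T cell receptor segments, Trbv15 and Trav10n. Without the pool of all agents 4 rose and 2 fell with that limit. Anti-CTLA-4 moved 0 genes up (0%) and 0 down (0%) in all proliferating cells, with 457 at an unadjusted p below 0.05 and 1 call by DESeq2. Within the upper limits of the study 0 rose and 1 fell, and without the filter 2 rose and 8 fell. It also moved 0 up (0%) and 0 down (0%) in cells with at most 1 tumor or fibroblast UMI, with 456 at an unadjusted p below 0.05. With that limit 3 rose and 2 fell without Isotype control, 0 rose and 4 fell without Anti-PD-1 + Anti-CTLA-4, 1 rose and 1 fell without the pool of all agents, and 1 fell without PancVAX + Anti-PD-1 or without Anti-CTLA-4.

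T cell receptor beta chains (TRB) linked proliferating cells to other cells of the same clone. In the 8 Percoll libraries, 920 of 1058 proliferating cells had a TRB chain (87.0%), against 80.0% of the other CD8 T cells. The share was 91.8% in proliferating cells with at most 1 tumor or fibroblast UMI and 74.9% in those with 10 or more. In the latter it was 43.8% in the PancVAX + Anti-PD-1 library and 83.8% to 100% in the other 7. A pair of chains or more was found in 3.80% of the proliferating cells with TRB and 2.11% of the other CD8 T cells with TRB. Cells with exactly 1 chain were compared. A clone was the set of cells of a library with the same V gene and the same nucleotides of the CDR3, the loop that contacts antigen.

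A larger share of proliferating cells than of other CD8 T cells carried a TRB chain seen in another non-proliferating cell of the library. For proliferating cells it was 56.0% with PancVAX, 68.4% with PancVAX + Anti-PD-1, 57.0% with PancVAX + Anti-CTLA-4 and 67.2% with all agents. It was 65.5% with Isotype control, 83.0% with Anti-PD-1, 78.0% with Anti-CTLA-4 and 73.7% with both antibodies. For the other CD8 T cells the same libraries held 50.1%, 63.0%, 56.8% and 62.6%, then 60.1%, 64.4%, 72.1% and 74.1%. The means were 68.6% ± 9.46 and 62.9% ± 7.77 (SD, n = 8 libraries). The difference was 5.69 points and was positive in 7 of 8 libraries (exact two-sided sign-flip permutation test, p = 0.0234). Within the upper limits of the study it was 2.26 points (exact permutation test, p = 0.266), and in cells with at most 1 tumor or fibroblast UMI 7.34 points (exact permutation test, p = 0.0156). The libraries held 178–711 other CD8 T cells with 1 chain to match, and the share depends on that number.

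Among proliferating cells the share was 62.2% ± 6.56 with PancVAX and 75.1% ± 7.41 without (SD, n = 4 each), a difference of -12.9 points (exact permutation test, p = 0.0857). The groups overlapped. When at least 2 matching cells were asked for, it was -22.1 points and the groups came close but did not overlap (exact permutation test, p = 0.0286, the smallest of 70 assignments). Without Isotype control the difference was -16.1 points (exact permutation test, p = 0.0286). The share also tended lower with PancVAX in the other CD8 T cells, at 50.1%–63.0% with it and 60.1%–74.1% without, with overlap. Whether the difference with PancVAX was itself unlike between the classes was not tested.

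**Figure D4:**
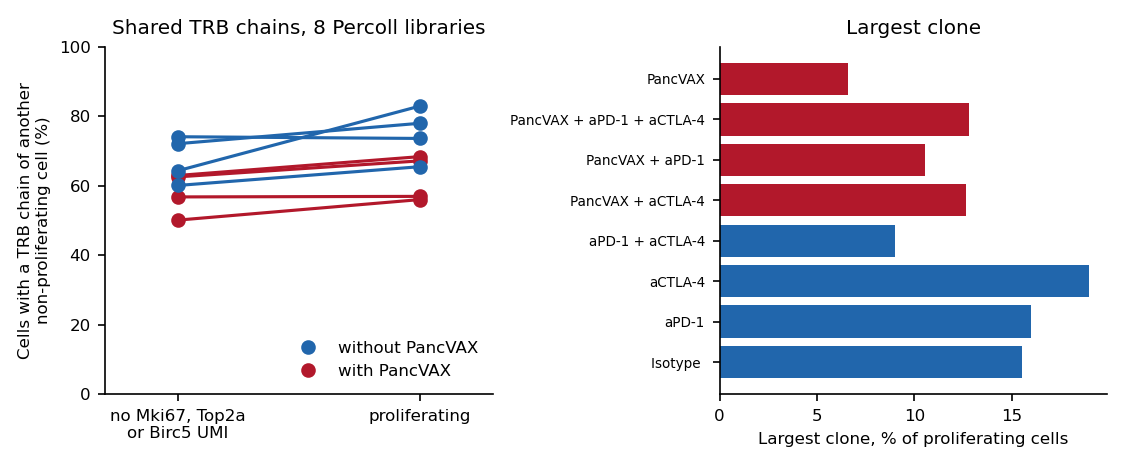
Left, percent of cells with 1 TRB chain whose chain was found in another non-proliferating CD8 T cell, for other (left) and proliferating (right) CD8 T cells, with a line per Percoll library without (blue) or with (red) PancVAX. Right, the largest clone as a percent of the proliferating cells with 1 chain in each library, from 6.59% with PancVAX to 18.9% with Anti-CTLA-4.

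The largest clone of proliferating cells held 6–25 cells, or 6.59%–18.9% of those with 1 chain, and 33.0%–69.0% of the proliferating cells belonged to a clone with more than 1 proliferating cell. The CDR3 of the largest clone in each library is shown because it is the part of the receptor that tells clones apart. The deposited nucleotide sequences are printed 5′ to 3′, and capitals mark the stretch between the ends shared by most CDR3s with the same V gene and with the same J gene.
PancVAX, TRBV26 and TRBJ1-1: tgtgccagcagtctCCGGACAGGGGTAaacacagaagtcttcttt
PancVAX + Anti-PD-1, TRBV5 and TRBJ1-4: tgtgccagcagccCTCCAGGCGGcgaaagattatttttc
PancVAX + Anti-CTLA-4, TRBV29 and TRBJ2-7: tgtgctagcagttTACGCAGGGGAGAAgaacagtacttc
PancVAX + Anti-PD-1 + Anti-CTLA-4, TRBV20 and TRBJ1-1: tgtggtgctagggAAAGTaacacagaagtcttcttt
Isotype control, TRBV16 and TRBJ2-3: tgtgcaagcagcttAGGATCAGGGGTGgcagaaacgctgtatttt
Anti-PD-1, TRBV13-1 and TRBJ1-6: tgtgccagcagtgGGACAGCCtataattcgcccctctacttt
Anti-CTLA-4, TRBV5 and TRBJ2-3: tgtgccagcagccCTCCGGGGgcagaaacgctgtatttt
Anti-PD-1 + Anti-CTLA-4, TRBV16 and TRBJ2-5: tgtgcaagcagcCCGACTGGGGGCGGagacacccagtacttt

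These clones differed in how they stood among non-proliferating cells. The TRBV5 clone of the Anti-CTLA-4 library had 25 proliferating and 51 other cells and was the largest clone in both. The TRBV13-1 clone of Anti-PD-1 had 16 and 37, the TRBV20 clone of the pool of all agents 16 and 67, and the TRBV16 clone of Isotype control 9 and 9, and each ranked first among the other cells too. The TRBV5 clone of PancVAX + Anti-PD-1 had 14 and 11, the TRBV29 clone of PancVAX + Anti-CTLA-4 10 and 7, the TRBV16 clone of Anti-PD-1 + Anti-CTLA-4 15 and 24, and the TRBV26 clone of PancVAX 6 and 3. The chain of the Anti-PD-1 clone was also found in 8 CD8 T cells of other Percoll libraries, and the chains of the remaining 7 in 0.

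The next clone of the Anti-CTLA-4 library, with 10 proliferating and 19 other cells, also used TRBV5 and TRBJ2-3, with a CDR3 of the same 39 bases in length as the largest. It is shown for comparison with that clone. The CDR3s of both clones encode the same amino acids, so that they differ in nucleotides only.
Second clone of Anti-CTLA-4, TRBV5 and TRBJ2-3: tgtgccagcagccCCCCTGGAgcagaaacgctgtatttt
Of the clones with at least 3 proliferating cells, 4 had 0 cells among the other CD8 T cells. These were clones of 3 cells in the PancVAX (TRBV14) and Anti-PD-1 + Anti-CTLA-4 (TRBV12-2) libraries and a pair in PancVAX + Anti-PD-1. The larger of that pair, with TRBV31 and TRBJ2-1, held 6 proliferating cells, all with at most 1 tumor or fibroblast UMI, and the other, with TRBV5 and TRBJ1-6, held 5, none of which met that limit.
TRBV31 clone of PancVAX + Anti-PD-1: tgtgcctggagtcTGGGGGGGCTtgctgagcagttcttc
TRBV5 clone of PancVAX + Anti-PD-1: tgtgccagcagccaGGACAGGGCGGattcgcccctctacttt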

How the data were processed

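RNA of 16 libraries and T cell receptors of 8 were analysed (Chromium 5′ chemistry). The deposited files hold UMI counts per gene and barcode, which the authors made with Cell Ranger 4.0.0 against mm10, with Seurat named as a further tool in the submitters' processing notes, and receptor contigs with UMI counts. The deposited counts are not normalized; the authors log-normalized and scaled them for their own analysis.

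Cells were chosen by the UMI limits given in the report, with no upper limit and no doublet caller. UMIs were summed by treatment and cell class and tested with edgeR 4.0.16 (TMM scaling, filterByExpr, quasi-likelihood test, Benjamini-Hochberg adjustment) with a term for each agent. DESeq2 1.42.0 was an alternative (R 4.3.3, limma 3.58.1, Python 3.11.15, numpy 2.4.6, scipy 1.17.1, pandas 2.3.3, matplotlib 3.10.9). Shares were compared by exact permutation of the 8 pools. Thinning for the shares used 20 draws (seed 11) and chose the cells anew in each draw. Thinning for the gene tests used a single draw, in cells chosen by all their UMIs. Of the tests, the edgeR test of PancVAX in all proliferating cells was tried on simulated data. P-values measure the spread between pools of mice, and the sources do not say if the libraries of a treatment share mice. Intervals cover counting error only.

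The members, gene lists and tests were chosen with earlier results of these data known. Named were the genes of the gate and Ccnb2, up to 6 called and 4 most abundant genes of each list, up to 8 genes of smallest p in each direction of a contrast with at least 30 UMIs, and the 10 highest and 10 lowest ratios to the other CD8 T cells among genes of at least 50 CPM. Genes named beyond this were chosen after their values were seen. Promoters came from RefSeq tables of GRCm38.p6.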

Additional observations from a re-analysis of the deposited data

Results flagged for a closer look

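In 10 of 136 groups of 4 samples, 1 value stood apart from the others by more than Dixon's critical value, where chance gives about 1 in 20. All but 1 are CPM in all proliferating cells. PancVAX + Anti-PD-1 stood apart from the other PancVAX pools with a TRB chain in 65.3% of its proliferating cells, and in Gramd3 at 116 CPM, Itgax at 17.1 and Krtdap at 112. The other CD8 T cells of that library had a chain in 61.4%. Pim1 was at 185 CPM in PancVAX alone and Tcrg-C4 at 4.54 in the pool of all agents. Among pools without PancVAX, Anti-PD-1 stood apart in Cad at 50.0 CPM and in Klf2 at 162, Anti-CTLA-4 in Fasl at 24.7, and Isotype control in Krtdap at 0.306.

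The change of the collagen Col1a2 with PancVAX differed between proliferating and other CD8 T cells by -6.70 on the log2 scale (edgeR quasi-likelihood test, Benjamini-Hochberg adjusted p = 0.000361). Col1a2 is a fibroblast gene, and of its 649 UMIs in proliferating cells 11 lay in cells with at most 1 tumor or fibroblast UMI.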

How the results depend on the processing

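The labels give no replicate numbers, so treatments were paired only by preparation, as a covariate in the fit over 16 libraries. The limit of 1 tumor or fibroblast UMI, thinning to 2500 UMIs, the joined thinning and every TRB chain of a cell were alternatives added after seeing the data. The cause was not tested for any change below. The share difference with PancVAX kept its sign in every alternative run, from -6.07 to -4.65 points when a pool was left out. That with Anti-CTLA-4 turned to -0.55 points within the study's upper limits, -0.20 at a mitochondrial share under 5%, -0.33 and -0.37 when thinned to 1000 and 2500 UMIs, -0.40 when thinned with at most 1 tumor or fibroblast UMI, and -0.053 and -0.022 with that limit in whole-tumor and Percoll libraries, and ran from -0.74 to 1.89 when a pool was left out. That with Anti-PD-1 turned to 0.0030 when thinned to 1000 UMIs. The TRB difference with PancVAX was -22.1 points with at least 2 matching cells and ran from -16.1 to -10.2 when a library was left out, and the TRB difference from other CD8 T cells was 2.26 within the study's limits.

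Genes called for PancVAX numbered 101 over 16 libraries with preparation as a covariate, 49 with DESeq2, 60 without a filter on low counts, 518 within the study's limits, 93 without C1qb or Lyz2, 310 with at most 1 tumor or fibroblast UMI, 135 with thinning added, and 1 to 22 when a pool was left out (153 to 348 with that limit). For Anti-PD-1 these were 1, 2, 14, 20, 3, 2, 1 and 0 to 1 (2 to 6 with that limit), with 3 in Percoll libraries. For Anti-CTLA-4 they were 1, 1, 10, 1 and 3 in the first 5 of these, and 0 to 5 when a pool was left out with that limit. Genes that differed between classes numbered 19 within the study's limits, 70 without a filter, 10 when thinned, 88 with at most 1 tumor or fibroblast UMI, 18 with thinning added, and 1 to 33 when a pool was left out (29 to 79 with that limit).

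Of 1047 values over 64 genes 15 turned sign. The change with PancVAX was -0.0025 for Foxo1 (tumor limit and thinning), -0.086 for Ccr7 (study's limits), and for Bst2 -0.11 in whole-tumor libraries and -0.040 to 0.35 when a pool was left out (lowest without Anti-PD-1). Within the study's limits the difference between classes was 0.17 for Ifitm1, -0.096 for Irf8, -0.098 for Ikzf2, -0.64 for Gzmd, -0.20 for Cd160 and 0.97 for Isg15. For Isg15 it was also 0.22 when thinned, 0.61 with the tumor limit, 0.72 with both, and -0.28 to 0.035 when a pool was left out (above 0 without PancVAX + Anti-CTLA-4 and, at 0.018, without Anti-PD-1 + Anti-CTLA-4).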
